A study of Mus musculus with 12 samples.

Results

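The genes described are 10 inflammatory cytokines and cytokine receptors, out of 49315 genes in the count table, and they were chosen by symbol. They are the ligands Tnf, Il6, Il10, Il1a, Osm, Lif, Il33 and Csf1 and the receptor chains Tnfrsf1b and Il4ra. Their RNA was measured in epididymal white adipose tissue (eWAT) of 12 male mice kept for 12 weeks on a diet labelled as 60% high fat, with 1 library per mouse and 3 mice per group. Flox mice (miR-181a2b2flox/flox) keep the microRNA genes Mir181a-2 and Mir181b-2, and KO mice (miR-181a2b2-/-) lack them in all tissues. Mice of each genotype received weekly intraperitoneal injections of vehicle or of methotrexate (MTX), an antifolate used against inflammatory disease, at 1 mg/kg. The 4 groups are therefore flox vehicle, KO vehicle, flox MTX and KO MTX, and all were fed the same diet, so no lean mouse is among them.

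Cytokines are secreted or membrane-bound proteins that bind receptors on nearby cells. TNF acts through TNFR1 (Tnfrsf1a) and TNFR2 (Tnfrsf1b), interleukin-1α through the IL-1 receptor, and IL-6, oncostatin M and LIF through receptors that share the chain gp130 (Il6st). IL-10 restrains macrophages, IL-33 acts on ST2 (Il1rl1) of regulatory T cells, mast cells and innate lymphoid cells, CSF-1 keeps macrophages alive through Csf1r, and IL-4Rα (Il4ra) carries the signal of IL-4 and IL-13. In obese adipose tissue, macrophages are a main source of TNF and IL-10, and stromal and mesothelial cells make IL-33.

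The deleted microRNAs are shown because their seed, the bases that pair with target messages, was used to search the messages of the cytokines. Seed bases 2 to 8 are in capitals in the mature sequences (RefSeq, GRCm38.p6, plus strand), which lie at chr2:38852741-38852763 and chr2:38853845-38853868.
mmu-miR-181a-5p: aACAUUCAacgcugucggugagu
mmu-miR-181b-5p: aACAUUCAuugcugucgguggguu
Both carry the same seed, and the complementary letters in DNA are TGAATGT. Of the precursor genes themselves, Mir181b-2 had no count in any library, and Mir181a-2 had 2, both from the 4th replicate of flox MTX. The count table therefore could not check the genotype labels.

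The letters TGAATGT stood in the 3′ untranslated region of 5 of the 10 genes, Tnf, Il6, Il1a, Lif and Il4ra. Il10, Osm, Il33, Csf1 and Tnfrsf1b held none. Of 15383 tested protein-coding genes with an annotated 3′ untranslated region, 17.5% held the letters at least once, taking the longest such region of each gene on its sense strand (GENCODE release M21, GRCm38). The median length of that region was 1094 bases, and among the 10 genes it ran from 706 bases in Il10 to 3180 bases in Lif. The share was not adjusted for length, and Il6 and Il1a were not among the tested genes. Each match is given with its flanks, 30 bases on the strand of the gene, with the match in capitals.
Tnf, chr17:35199652-35199681: ttatttgcttaTGAATGTatttatttggaa
Il6, chr5:30019648-30019677: aactgacaataTGAATGTtgggacactatt
Lif first match, chr11:4269335-4269364: agaggaggtctTGAATGTaccatggactga
Lif second match, chr11:4272359-4272388: ttcctctttgaTGAATGTaccctgtgggaa
Il4ra, chr7:125578258-125578287: ctaagtgttgtTGAATGTgtcaaggcattg
Il1a first match, chr2:129300568-129300597: gtaattctaaaTGAATGTttaccctctttg
Il1a second match, chr2:129300139-129300168: agacagactgtTGAATGTtatttttaagtt
In Tnf and in both Lif matches the next base was A. A match of letters is a description and not evidence that the microRNA binds there.

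Promoters were read from RefSeq (GRCm38.p6) as 250 bases before to 50 bases after the start, for 8 of the 10 genes. Il10 and Osm were not searched. The consensus of NF-kappaB, the factor that TNF and interleukin-1 receptors activate, was searched on both strands because it is the usual reference motif for inducible cytokine genes. It occurred in 8.46% of 32851 promoters and in those of Csf1, Il6, Lif and Il4ra, the last of which reached past the start and is not shown. The matches are in capitals, on the strand of the gene.
Csf1, chr3:107760604-107760633: gggccttgagGGAAAGTCCCtaggggccag
Il6, chr5:30013060-30013089: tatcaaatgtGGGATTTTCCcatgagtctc
Lif, chr11:4257380-4257409: atcaagtacaGGGACGCCCCctccccacac
These matches began 154, 44 and 178 bases before the start, respectively. No match was found in this window of Tnf, Tnfrsf1b, Il1a or Il33.

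The libraries held 19495310 to 23976469 counts each, and all 12 pairs within a group differed by more than sampling noise. A list of 12 adipocyte markers summed to 10625 to 74060 CPM per library. The flox vehicle libraries also carried epididymal RNA: a list of 48 epididymis genes summed to 2805 to 23607 CPM there (counts scaled to a library of 1000000), to at most 40.9 CPM in 8 other libraries and to 968 CPM in the remaining one, flox MTX replicate 1. A list of 18 testis genes summed to 264 to 711 CPM in flox vehicle and to at most 21.7 CPM elsewhere. The genotype and treatment of the flox vehicle group cannot be told apart from this difference in the tissue collected. CPM are scaled by TMM factors throughout, and values after ± are SD over 3 mice for levels and SE for log2 fold changes.

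Per kilobase of exon, the receptor Tnfrsf1b had the highest level of the 10 genes, with a mean of 20.3 CPM per kb over the 12 libraries. It was followed by Csf1 (10.6), Il4ra (8.77) and Il33 (4.82 CPM per kb). The remaining ligands were lower, Tnf at 1.17, Il10 at 0.972, Osm at 0.514, Lif at 0.446, Il1a at 0.163 and Il6 at 0.0488 CPM per kb. Neighbors in this order were not always separated: Csf1 exceeded Il4ra in 9 of 12 libraries, Tnf exceeded Il10 in 8 of 12 and Osm exceeded Lif in 6 of 12. Il33 exceeded Tnf and Lif exceeded Il1a in 12 of 12 libraries. From the lowest to the highest library, Osm varied 59.5-fold and Il10 37.5-fold, whereas Lif varied 2.59-fold. The order is that of the mean over groups of unlike level. In flox vehicle mice alone Tnfrsf1b (6.57), Csf1 (6.36) and Il4ra (6.30 CPM per kb) were level, followed by Il33 (2.49), and Lif (0.520) stood above Tnf (0.290), Il1a (0.260), Il10 (0.142) and Osm (0.132 CPM per kb).

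**Figure D1:**
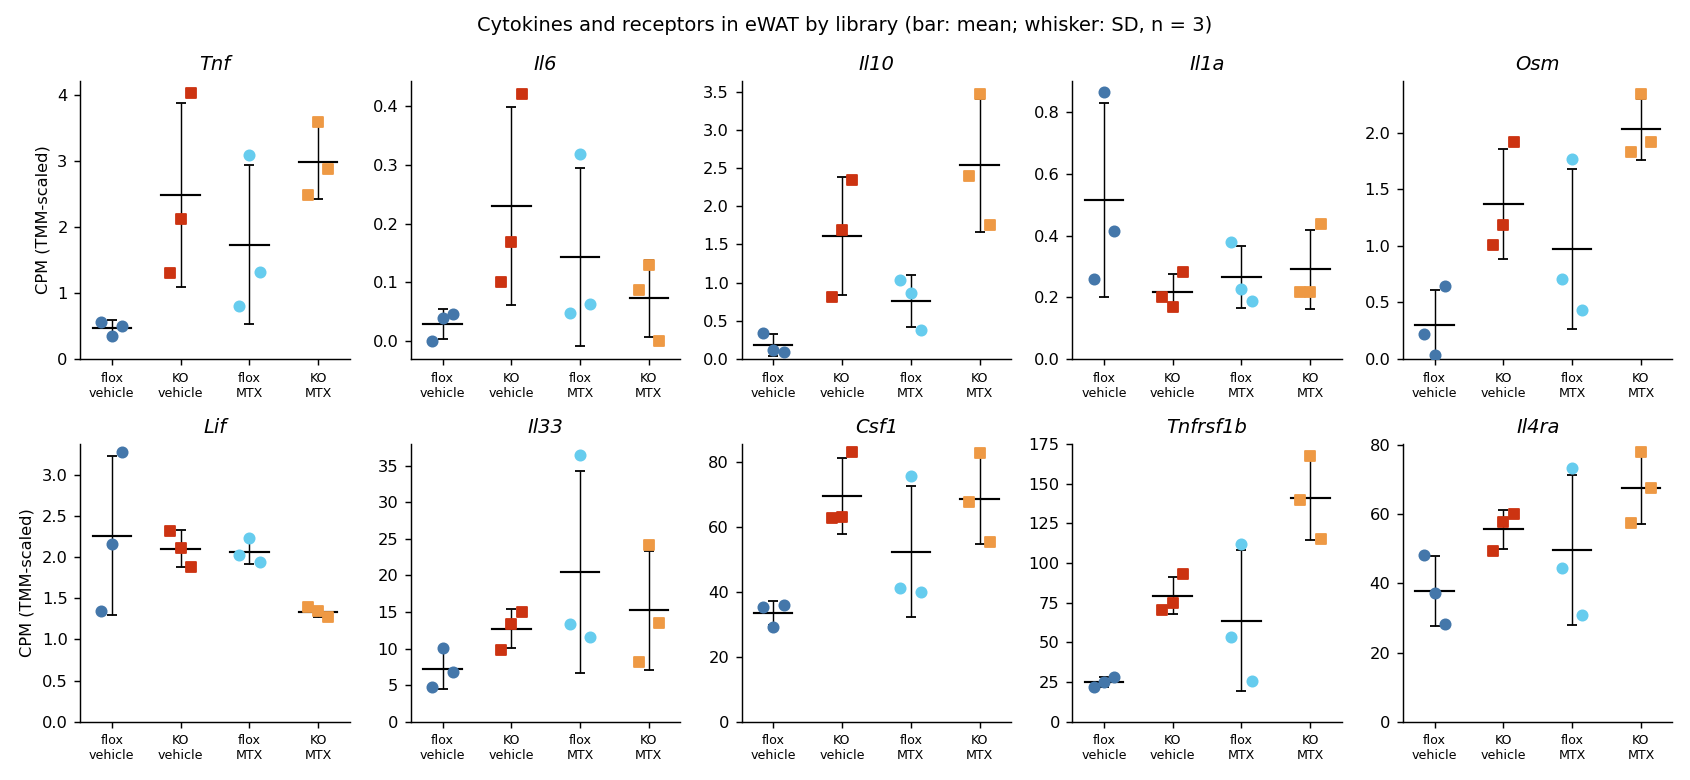
Level of each of the 10 genes in every library, in CPM scaled by TMM factors on a linear axis (each panel has its own scale). Points are the 3 mice of each group, bars the mean and whiskers the SD. For Tnf, Il10, Osm, Csf1, Tnfrsf1b and Il4ra every KO vehicle mouse lies above every flox vehicle mouse. The same is seen for Il6, on 0 to 9 counts per library. Flox MTX replicate 2 is the highest of its group for 7 of the 8 genes tested, the exception being Il10.

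Of the 10 genes, 8 passed the filter on low counts and were tested, and Il6 and Il1a did not pass. Il10 had 2 to 8 counts and Osm 1 to 14 counts in the flox vehicle libraries, so both passed the filter through the other groups. Il10 reached the cutoff of the filter (0.458 CPM) in 0 of the 3 flox vehicle libraries, Osm in 1 and Tnf in 2, and the other 5 genes in all 3. A gene that enters a test through the groups in which it is high is favored to differ. The values of Il10, Osm and Tnf against flox vehicle are therefore descriptions. In flox MTX, Il10 and Osm reached the cutoff in 2 of the 3 libraries, beside 3 of 3 in each KO group. Their values between genotypes under MTX are therefore descriptions too. A gene was called at an adjusted p below 0.1 in edgeR's quasi-likelihood test and a fold change of at least 1.5.

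Under vehicle, the ligand Csf1 (2.07-fold) and the receptor Tnfrsf1b (3.17-fold) were higher in KO than in flox eWAT. Tnf (5.20-fold), Il10 and Osm, given as descriptions, were called higher as well. That makes 5 of the 8 genes tested, and none was lower. The background is high: 31.7% of the 18702 genes tested were called in this comparison, 13.9% higher and 17.8% lower. The unadjusted p was below 0.05 for 41%. Of the 5 genes that reached the cutoff of the filter in every flox vehicle library, 2 were called, Csf1 and Tnfrsf1b. Values of the KO mice lay wholly above those of the flox mice for 6 of the 8. The same held for 22.8% of all genes, and 48.1% of all genes did not overlap in either direction. Among the 6, Tnf, Il10 and Osm were favored to separate by the way they passed the filter. The rest were Csf1, Tnfrsf1b and Il4ra, which reached the cutoff in every flox vehicle library. With flox vehicle replicate 4, which held the least epididymal RNA, as the only flox vehicle library, 1415 genes were called, and of the 8 genes only Il10, which had 2 counts in that library and for which no fold is given. Tnf (2.28), Tnfrsf1b (1.49), Osm (1.08) and Csf1 (0.95) were then higher without passing, at adjusted p-values of 0.17 to 0.41.

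Tnf (ENSMUSG00000024401, chr17:35199381-35202007) encodes the cytokine that gives its family its name. It measured 0.564, 0.354 and 0.508 CPM in flox vehicle mice and 1.31, 2.12 and 4.03 CPM in KO vehicle mice. The lowest KO mouse was above the highest flox mouse. The log2 fold change was 2.38 ± 0.56 (adjusted p = 0.0095, edgeR; exact permutation p = 0.1, two-sided, the smallest that 3 against 3 mice allow).

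Il10 (ENSMUSG00000016529, chr1:131019845-131024974), the anti-inflammatory cytokine of the set, measured 0.347, 0.118 and 0.0923 CPM in flox vehicle and 0.806, 1.69 and 2.34 CPM in KO vehicle mice, again without overlap. The fitted log2 fold change was 3.08 ± 0.62 (adjusted p = 0.0051), on 2 to 8 counts per library in the lower group.

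Osm (ENSMUSG00000058755, chr11:4236420-4241026), made mostly by myeloid cells, measured 0.217, 0.0393 and 0.646 CPM in flox vehicle and 1.01, 1.19 and 1.92 CPM in KO vehicle mice. Its neighbor on the chromosome and relative in the gp130 family, Lif (ENSMUSG00000034394, chr11:4257557-4272514), measured 1.35, 2.16 and 3.28 CPM in flox and 2.32, 2.12 and 1.87 CPM in KO mice. The groups were separate for Osm, and for Lif the 3 KO mice lay within the range of the flox mice. The fitted log2 fold change of Osm was 2.20 ± 0.73 (adjusted p = 0.043). The call was lost when any of 3 libraries was left out, namely flox vehicle replicate 1 (log2 fold change then 2.02, adjusted p = 0.125), replicate 3 of the same group (1.66, adjusted p = 0.10004) or KO vehicle replicate 3 (1.89, adjusted p = 0.134). Lif differed by -0.10 ± 0.32 (adjusted p = 0.84, 95% interval -0.81 to 0.60).

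Csf1 (ENSMUSG00000014599, chr3:107741048-107760469), the macrophage growth factor, was the most abundant of the 8 ligands among the 10 genes. It measured 35.4, 29.3 and 36.1 CPM in flox vehicle and 62.7, 63.0 and 83.0 CPM in KO vehicle mice. All 3 KO mice were well above the flox mice, with a log2 fold change of 1.05 ± 0.25 (adjusted p = 0.0100). Csf1r, its receptor, changed by 2.31 ± 0.48 (adjusted p = 0.0056), whereas Il34, the other ligand of that receptor, differed by 0.10 ± 0.27 (adjusted p = 0.81).

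Il33 (ENSMUSG00000024810, chr19:29925114-29960718), an alarmin stored in the nucleus of stromal cells, measured 4.77, 10.1 and 6.74 CPM in flox vehicle and 9.82, 13.3 and 15.04 CPM in KO vehicle mice. The groups overlapped, by flox replicate 3 and KO replicate 1. The difference of 0.82 ± 0.49 did not pass (adjusted p = 0.23). Its receptor Il1rl1 was higher in KO mice by 1.23 ± 0.41 (adjusted p = 0.042).

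Tnfrsf1b (ENSMUSG00000028599, chr4:145213463-145246870), the TNF receptor found mainly on leukocytes and endothelium, measured 22.0, 24.9 and 28.4 CPM in flox vehicle and 70.6, 74.9 and 93.0 CPM in KO vehicle mice. There was no overlap, and the log2 fold change was 1.66 ± 0.41 (adjusted p = 0.011). Tnfrsf1a, the widely expressed TNF receptor, differed by 0.35 ± 0.15 (adjusted p = 0.10) and was not called. Per kilobase, Tnfrsf1a stood 7.71-fold to 11.7-fold above Tnfrsf1b in flox vehicle mice and 3.34-fold to 4.24-fold above it in KO vehicle mice. The ratio was 1.86-fold to 2.94-fold in KO MTX mice, the lowest of the 4 groups by its median.

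Il4ra (ENSMUSG00000030748, chr7:125552120-125579474), which carries IL-4 and IL-13 signals, measured 48.1, 37.2 and 28.1 CPM in flox vehicle and 49.2, 57.6 and 59.9 CPM in KO vehicle mice. The ranges lay next to each other without overlapping, and the difference of 0.56 ± 0.28 did not pass (adjusted p = 0.16). Of its ligands, Il4 measured 1.02 to 1.89 CPM in flox vehicle and 1.31 to 2.12 CPM in KO vehicle mice (log2 fold change 0.20 ± 0.33, adjusted p = 0.68), and Il13 was too low to test.

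Il6 (ENSMUSG00000025746, chr5:30013114-30019981), a pyrogenic cytokine raised in obesity, was close to the limit of detection. It had 0, 1 and 1 counts in flox vehicle, 2, 4 and 9 in KO vehicle, 1, 7 and 1 in flox MTX and 2, 3 and 0 in KO MTX libraries. A count of 0 allows up to 3 counts, by counting error alone, so differences in Il6 were not resolved at this depth. Il1a (ENSMUSG00000027399, chr2:129299610-129309972), the cell-associated form of interleukin-1, had 3 to 22 counts per library and was highest, at 0.865 CPM, in flox vehicle replicate 3, the library with the most epididymal RNA. The opposite strand of Il1a carries the annotated gene Gm14023, which had 10 to 48 counts and was also highest in flox vehicle replicate 3. Since the strand setting of the counting was not stated, reads of the overlapping part cannot be assigned with certainty.

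**Figure D2:**
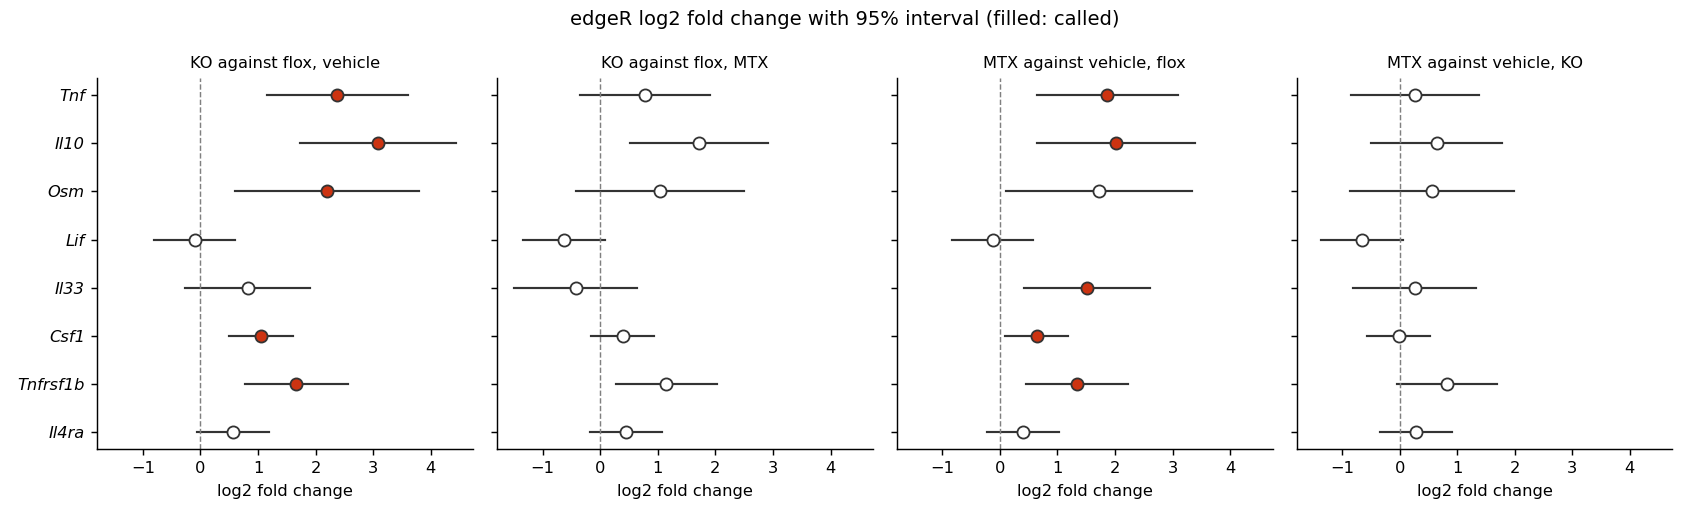
Log2 fold change of the 8 genes tested in each of 4 comparisons (horizontal axis), with 95% intervals from edgeR; filled circles mark called genes. The 5 filled circles of KO against flox under vehicle and the 5 of MTX against vehicle in flox mice lie to the right of 0, and no circle is filled in the other panels.

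The cognate partners of these genes were called about as often as other genes under vehicle. From a list of 50 ligands, receptors and signaling genes of the same pathways, 47 were tested, and 14 were higher and 3 lower in KO mice, or 36.2% called beside 31.7% of all genes. Their median log2 fold change was 0.47. Among the receptors 8 of 15 (53.3%) were higher and none lower, beside 13.9% of all genes called higher: Il10ra (1.90), Il10rb (1.67), Csf1r, Il2rg (1.27), Il6ra (1.27), Il1rl1, Il1rap (0.77) and Il13ra1 (0.76, in log2 units). The receptors of the gp130 ligands that were not called were Osmr (0.32), Lifr (0.25) and Il6st (0.25).

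Among the partner ligands, Il1rn, the natural antagonist of interleukin-1 receptors, measured 2.86, 2.08 and 8.26 CPM in flox vehicle and 37.0, 44.8 and 109 CPM in KO vehicle mice. That was the largest change of the 47 genes, at 3.86 ± 0.82 log2 units (adjusted p = 0.0061). Ctf1, a gp130 ligand, was lower, at 7.29, 7.32 and 4.85 CPM in flox against 1.61, 1.82 and 1.31 CPM in KO mice (-2.03 ± 0.29, adjusted p = 0.0028). Il1b had 0.0787 to 0.217 CPM in flox and 0.0423 to 0.605 CPM in KO vehicle mice and was not called (1.198 ± 0.97, adjusted p = 0.38).

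Of the 22 signaling genes 7 (31.8%) were called, as were 31.7% of all genes. Higher in KO mice were Socs3, the feedback inhibitor of gp130 signaling (1.29 ± 0.37, adjusted p = 0.023), Traf1 (1.27), Adam17, the protease that sheds TNF and its receptors (0.94 ± 0.17, adjusted p = 0.0042), Socs2 (0.90) and Jak3 (0.76). Lower were Cish, a STAT5 target (-2.56 ± 0.56, adjusted p = 0.0068), and Jak2 (-0.73). Among flox vehicle mice Cish measured 28.4 CPM in replicate 1 and 29.9 CPM in replicate 3, which were the libraries richest in epididymal RNA, and 4.62 CPM in replicate 4, beside 3.13 to 4.23 CPM in KO vehicle mice. The part of epididymal RNA in that difference was not tested. Of 12 genes that cytokines are known to induce in adipose tissue or macrophages, 6 were called higher in KO mice, beside 13.9% of all genes. These were Timp1 (3.98), Arg1 (2.99), Clec10a (2.36), Mrc1 (1.97), Ccl2 (1.81) and Cxcl1 (1.17). None was called lower, but only 9 of the 12 lay above 0, and the lowest value was -1.12. Lcn2 had 1288, 1604 and 1920 counts in flox vehicle and 585, 863 and 623 counts in KO vehicle libraries.

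Markers of macrophages and of several other cell types differed in the same comparison, and their part in the differences of the cytokines was not tested. The summed level of 17 macrophage genes was 796 to 1445 CPM in flox vehicle, 6473 to 12387 CPM in KO vehicle, 1190 to 7334 CPM in flox MTX and 8899 to 14867 CPM in KO MTX mice. All 17 were called higher in KO vehicle mice, with a median log2 fold change of 2.88. Of 10 fibroblast genes 9 were higher and 1 lower, of 10 endothelium genes 8 were higher, and of 6 mast cell genes 5 were higher. Of 12 adipocyte genes 3 were lower and none higher.

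Few genes of the B cell and T cell lists were called, and the neutrophil genes were split. Of 5 B cell genes none was called, and of 6 neutrophil genes tested 2 were higher and 1 lower. Of 9 T cell genes 1 was called, Il7r, the receptor chain for interleukin-7 (3.63 ± 0.57, adjusted p = 0.0030). The T cell list summed to 12.1 to 23.4, 59.2 to 124, 31.95 to 123 and 111 to 173 CPM in the 4 groups in the order above, and Il7r made up 27.5% to 43.2% of the sum in flox vehicle and 73.9% to 80.8% in KO vehicle mice. Without Il7r, a choice made after its values were seen, the other 8 genes summed to 8.54 to 16.97 CPM in flox vehicle and 12.9 to 23.9 CPM in KO vehicle mice, so that the groups overlapped. In whole tissue, more cells of a type and more RNA per cell cannot be told apart.

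Set against the macrophage list, which was itself higher in KO mice, Tnf, Tnfrsf1b and Csf1 were lower in KO than in flox vehicle mice. Per 1000 CPM of that list, Tnf stood at 0.351 to 0.497 CPM in flox vehicle and 0.202 to 0.325 CPM in KO vehicle mice. Tnfrsf1b stood at 19.3 to 31.3 CPM in flox vehicle and 7.51 to 10.9 CPM in KO vehicle mice, and Csf1 at 24.98 to 36.8 and 6.70 to 9.69 CPM. Il10 and Osm overlapped on this scale, Il10 with 0.0639 to 0.306 CPM in flox and 0.125 to 0.231 CPM in KO vehicle mice, and Osm with 0.0494 to 0.447 and 0.155 to 0.162 CPM. The direction depends on the genes summed, and those with the most CPM weigh most. The 17 genes of the list rose by 0.66 to 4.22 log2 units, beside 2.38 for Tnf, 1.66 for Tnfrsf1b and 1.05 for Csf1. Against the genes that rose least, these 3 would be higher in KO mice. The ratios are therefore not levels per macrophage. They are descriptions and were not tested.

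Across the 12 libraries, which share the group differences, Tnfrsf1b followed the macrophage list most closely (Pearson r = 0.97 of log2 CPM), and the correlation was 0.94 for deviations from group means. Tnf followed the T cell list (r = 0.97; 0.87 for deviations) more closely than the macrophage list (0.90; 0.58). The same order held for Csf1 (T cell list 0.95; 0.92, macrophage list 0.94; 0.82), Il4ra (0.88; 0.85 and 0.84; 0.70) and Il10 (0.94; 0.68 and 0.93; 0.64). Without Il7r the values with the T cell list were 0.82 and 0.88 for Tnf, 0.73 and 0.82 for Csf1, 0.78 and 0.79 for Il4ra and 0.66 and 0.49 for Il10. Over the 12 libraries each then lay below the macrophage value, so the order was reversed. For deviations it was reversed for Il10 only, and Csf1 was level. The same genes ran against the epididymis list: Tnf (-0.92; -0.63 for deviations), Csf1 (-0.86; -0.45), Tnfrsf1b (-0.82; -0.22), Il10 (-0.79; 0.24) and Il4ra (-0.64; -0.10). Osm did so too (-0.87; -0.51), and followed the fibroblast list (0.94; 0.85) as closely as the macrophage list (0.93; 0.78). With the fibroblast list Il10 (0.91; 0.64), Csf1 (0.91; 0.64), Tnfrsf1b (0.88; 0.66), Tnf (0.87; 0.46) and Il4ra (0.71; 0.39) also rose, so the likeness was not particular to 1 cell type.

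Il33 followed the macrophage list less closely (0.57; 0.56), and stood at 0.69 with the B cell list (0.62 for deviations) and at 0.69 with the neutrophil list (0.26). Its deviations ran against the adipocyte list (-0.85, and -0.44 over all 12 libraries) and with a list of 10 mesothelium genes (0.81), whereas over all 12 libraries the latter value was 0.12. The keratins Krt8 and Krt18, which other epithelia also express, made up 46.6% to 86.4% of the mesothelium sum in flox vehicle libraries and at most 14.8% in the others. Without them the values for Il33 were 0.73 over all 12 libraries and 0.56 for deviations. Lif was related to neither (-0.36 with the macrophage and -0.48 with the T cell list).

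**Figure D3:**
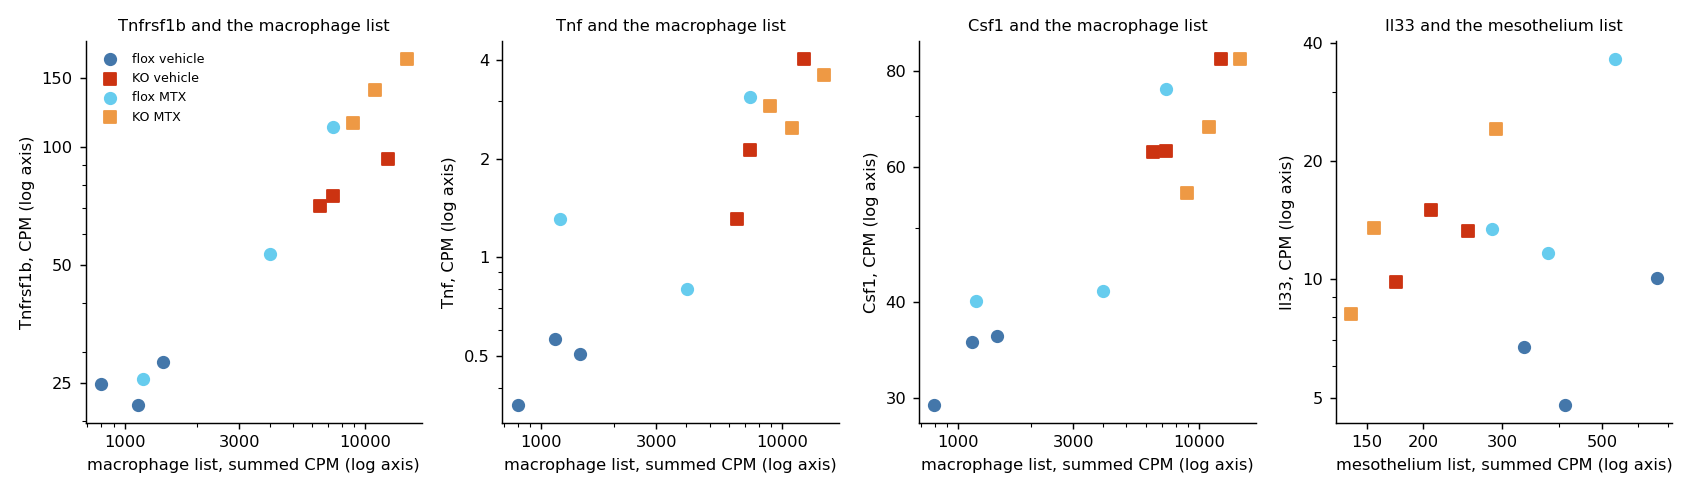
Level of Tnfrsf1b, Tnf and Csf1 against the summed macrophage list, and of Il33 against the summed mesothelium list, in CPM on log axes; each point is 1 library and colors mark the 4 groups. Tnfrsf1b rises with the macrophage list from 22.0 CPM to 168 CPM, while the flox vehicle libraries lie low for Il33 at a given mesothelium level, where Krt8 and Krt18 make up 46.6% to 86.4% of the mesothelium sum.

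The genes whose levels ran most like those of each cytokine were found by Pearson correlation of log2 CPM over the 12 libraries among all tested genes. Tnfrsf1b ran with Siglec1 (0.997), Slamf7 (0.996) and Slc43a2 (0.993). Osm ran with Fn1 (0.987), Myo5a (0.987) and Kctd12b (0.981), and Csf1 with A130071D04Rik (0.988), Flnc (0.981) and Gsdmd (0.980). Il10 ran with Cd300ld3 (0.977), Gm10252 (0.973) and Prelid2 (0.972), and Tnf with Irgm1 (0.970), Mndal (0.970) and A630001G21Rik (0.969). Siglec1 is a macrophage surface lectin, and Irgm1 and Mndal are genes that interferons induce. Likeness was lower for Il4ra with Zbtb2 (0.966), Tcp11l2 (0.948) and Maf1 (0.943), for Il33 with Samd9l (0.946), Cd38 (0.905) and 5830411N06Rik (0.900), and for Lif with Spsb1 (0.892), Igfbp2 (0.868) and Fancc (0.858).

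MTX was compared with vehicle in flox mice, a comparison that shares the flox vehicle libraries with the one above. Here Il33, Csf1 and Tnfrsf1b were higher with MTX. With Tnf and Il10, given as descriptions, 5 of the 8 genes tested were called and none was lower. Of all genes 24.2% were called, 8.09% higher and 16.1% lower, and 34.2% had an unadjusted p below 0.05. The values of 4 of the 8 genes did not overlap, with MTX higher, beside 10.9% of all genes in that direction and 28.3% in either. Among the 4, Tnf and Il10 were favored to separate by the way they passed the filter, and the rest were Il33 and Csf1. Marker lists differed as well: 15 of 17 macrophage, 5 of 9 T cell, 5 of 6 neutrophil, 5 of 10 fibroblast and 2 of 5 B cell genes were higher, and 28 epididymis and 18 testis genes were lower. The part of these differences in those of the cytokines was not tested.

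Tnf measured 0.803, 3.09 and 1.31 CPM in flox MTX mice, all above the flox vehicle mice (1.87 ± 0.56, adjusted p = 0.039). Il10 measured 1.04, 0.864 and 0.375 CPM, the last of them just above the highest flox vehicle mouse at 0.347 CPM (2.02 ± 0.63, adjusted p = 0.046). Il33 measured 13.4, 36.4 and 11.6 CPM, and flox MTX replicate 2 was the highest library of all 12. Its log2 fold change was 1.51 ± 0.50 (adjusted p = 0.056). Of the 10 mesothelium genes 7 were called higher and 2 lower, Krt8 (-3.51) and Krt18 (-3.56).

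Csf1 measured 41.3, 75.8 and 40.1 CPM in flox MTX mice, with a log2 fold change of 0.64 ± 0.25 (adjusted p = 0.093). Tnfrsf1b measured 53.2, 112 and 25.6 CPM, so that replicate 4 lay within the flox vehicle range (1.35 ± 0.40, adjusted p = 0.040). Osm, at 0.709, 1.77 and 0.438 CPM, overlapped with flox vehicle and was not called (1.72 ± 0.73, adjusted p = 0.12). Il4ra (0.39 ± 0.28, adjusted p = 0.35) and Lif (-0.13 ± 0.32, adjusted p = 0.81) were not called either.

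The calls changed when single libraries were left out. Flox MTX replicate 2 held the highest macrophage sum of its group (7334 CPM, beside 4009 and 1190 CPM), the highest T cell sum (123 CPM, beside 40.8 and 31.95 CPM) and the highest B cell sum (287 CPM, beside 108 and 21.4 CPM). Without it only Il10 was called (1.94, adjusted p = 0.083), and Tnf fell to 1.15 (adjusted p = 0.131), Il33 to 0.81 (adjusted p = 0.190), Tnfrsf1b to 0.66 (adjusted p = 0.114) and Csf1 to 0.29 (adjusted p = 0.292). Leaving out a flox vehicle library moved the calls and, for some genes, the fold changes. Without replicate 4 of that group Osm rose to 2.93 and was called (adjusted p = 0.022, edgeR), and Lif moved to 0.24. Csf1 then stood at 0.70 and lost its call (adjusted p = 0.101, edgeR). Without replicate 3 only Il33 was called (1.83, adjusted p = 0.085), while Tnf stood at 1.69, Il10 at 1.77, Tnfrsf1b at 1.34 and Csf1 at 0.55. Without replicate 1 only Tnf (2.01, adjusted p = 0.078) and Il10 (2.80, adjusted p = 0.031) were called, while Il33 stood at 1.29, Tnfrsf1b at 1.26 and Csf1 at 0.68. When the fit held the 6 libraries of this comparison alone, Il10 fell under the filter and none of the other 7 genes was called, with Tnf at 1.85 (adjusted p = 0.122), Il33 at 1.504, Tnfrsf1b at 1.34 and Csf1 at 0.63.

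Among the partners, 10 of 47 were higher with MTX in flox mice and 2 lower, or 25.5% called beside 24.2% of all genes. The higher ones included Csf1r (1.66 ± 0.48, adjusted p = 0.032), Il2rg (1.57), Il10ra (1.48), Il6ra (1.02), Il10rb (0.77) and the lymphotoxin gene Ltb (2.08). Socs3 (1.04), Traf1 (1.04) and Adam17 (0.60) were also higher, and Cish (-1.56) and Ctf1 (-0.91) were lower. Cish had 654 and 760 counts in flox vehicle replicates 1 and 3, the libraries richest in epididymal RNA, and 100 counts in replicate 4. The flox MTX libraries had 102, 167 and 144 counts, so no fall was seen against replicate 4. The part of epididymal RNA in this difference was not tested. Il1rn measured 17.5, 15.3 and 1.38 CPM and was not called (1.39, adjusted p = 0.22). Of the 12 genes that cytokines induce, 6 were called higher, beside 8.09% of all genes. These were Saa3 (3.05), Arg1 (2.82), Timp1 (2.502), Chil3 (2.00), Clec10a (1.59) and Mrc1 (1.59). None was called lower, 11 of the 12 lay above 0, and the lowest value was -1.09.

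KO mice were compared with flox mice under MTX. None of the 8 genes was called, and neither was any of the 18702 genes tested (0%), although 24.5% had an unadjusted p below 0.05, among them Il10 and Tnfrsf1b. DESeq2 called 2769 genes in all and 2 of the 8, the same pair. Of that pair, the values of Il10 are descriptions, because it passed the filter through the KO groups. Il10 measured 2.39, 3.47 and 1.75 CPM in KO MTX mice, all above the flox MTX mice (1.71 ± 0.54, adjusted p = 0.12 in edgeR and 0.035 in DESeq2). Tnfrsf1b measured 140, 168 and 115 CPM in KO MTX mice, and the lowest of them was above flox MTX replicate 2 (1.14 ± 0.40, adjusted p = 0.13 in edgeR and 0.042 in DESeq2).

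Osm, at 1.83, 2.34 and 1.92 CPM in KO MTX mice, also lay wholly above flox MTX (1.04 ± 0.66, adjusted p = 0.35). Lif was the only gene of the 8 that lay wholly below it, with 1.39, 1.34 and 1.27 CPM in KO MTX against 2.03, 2.23 and 1.94 CPM in flox MTX mice (-0.63 ± 0.33, adjusted p = 0.26). The groups thus did not overlap for 4 of the 8 genes, beside 26.8% of all genes. They lay higher in KO mice for 3 of the 8, beside 14.7% of all genes. Among those 3, Il10 and Osm were favored to separate by the way they passed the filter, and the remaining gene was Tnfrsf1b. Tnf (2.48, 3.60 and 2.88 CPM in KO MTX mice, 0.78 ± 0.51, adjusted p = 0.37) and Csf1 (67.7, 82.9 and 55.4 CPM, 0.39 ± 0.25, adjusted p = 0.35) overlapped with flox MTX replicate 2.

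Leaving out flox MTX replicate 2 raised the number called among the 8 genes from 0 to 5 and among all genes from 0 to 4064. These were Tnf (1.504, adjusted p = 0.067), Il10 (1.81, adjusted p = 0.086), Csf1 (0.76, adjusted p = 0.035), Tnfrsf1b (1.84, adjusted p = 0.028) and Il4ra (0.84, adjusted p = 0.046), all higher in KO mice. Il33 measured 8.13, 24.1 and 13.5 CPM in KO MTX mice and differed by -0.43 ± 0.49 with all libraries and by 0.29 without that replicate. Of the 47 partners none was called in edgeR with all libraries, and 14 had an unadjusted p below 0.05. Among the cognate receptors, the lowest adjusted p-values were those of Il10rb (0.91, adjusted p = 0.11) and Il1rl1 (1.32, adjusted p = 0.11).

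**Figure D4:**
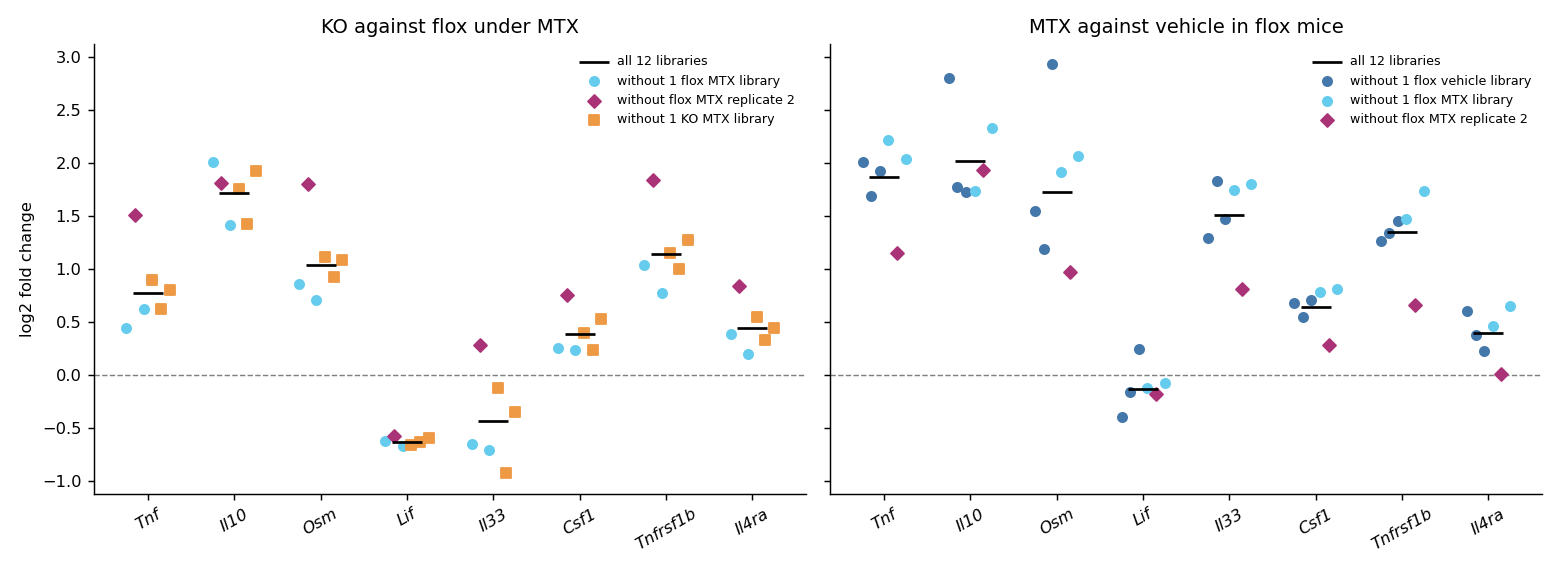
Log2 fold change of the 8 genes in 2 comparisons (vertical axis) with all 12 libraries (black line) and with 1 library of the comparison left out (points). The diamond, the fit without flox MTX replicate 2, lies highest of the points for 7 of the 8 genes in KO against flox under MTX, the exception being Il10, and lowest for Tnf, Osm, Il33, Csf1, Tnfrsf1b and Il4ra in MTX against vehicle in flox mice.

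In KO mice, MTX was compared with vehicle. None of the 8 genes and 0% of all genes were called in edgeR, 7.97% of all genes had an unadjusted p below 0.05 (none of the 8), and DESeq2 called 281 genes in all and none of the 8. Tnfrsf1b (0.83 ± 0.40, unadjusted p = 0.061, adjusted p = 0.65) was higher in 3 of 3 MTX mice than in any vehicle mouse. Lif lay wholly below, at 1.27 to 1.39 CPM with MTX and 1.87 to 2.32 CPM with vehicle (-0.65 ± 0.32, unadjusted p = 0.069, adjusted p = 0.66). Those 2 of 8 genes compare with 20.7% of all genes that did not overlap, and with 11.1% in which MTX was higher.

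The other 6 genes were not called either, and the 95% interval of each held 0. Tnf differed by 0.26 ± 0.51 (95% interval -0.85 to 1.38), Il10 by 0.65 ± 0.52 and Csf1 by -0.02 ± 0.25 (95% interval -0.56 to 0.52). An increase of Csf1 as large as that between genotypes under vehicle lies outside this interval. A change of Tnf by 2-fold in the upward direction lies inside its interval and was not excluded by these data.

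The interaction asks whether the MTX difference was the same in both genotypes. It was below 0 for all 8 genes, which means a smaller rise or a larger fall with MTX in KO mice. None of the 8 was called, and 0.989% of all genes were (0.898% above 0 and 0.0909% below). Called or not, 46.4% of all genes lay above 0. So did 1 of 17 macrophage, 0 of 9 T cell and 0 of 10 endothelium genes, and 29 of 33 epididymis and 18 of 18 testis genes. The shared sign is therefore not particular to the cytokines. Of all genes, 15% had an unadjusted p below 0.05, and none of the 8 did. The values ran from -1.60 ± 0.75 for Tnf (unadjusted p = 0.055, adjusted p = 0.34) and -1.37 ± 0.81 for Il10 to -0.52 ± 0.56 for Tnfrsf1b and -0.11 ± 0.40 for Il4ra. Without flox MTX replicate 2, Tnf moved to -0.89, and Tnfrsf1b (0.16) and Il4ra (0.27) were above 0.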

How the data were processed

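RNA of eWAT was sequenced in 12 libraries, 1 per mouse. The authors trimmed reads with Trimmomatic 0.36, aligned them to GRCm38 with STAR 2.5.2b and counted them with featureCounts (Subread 1.5.2) for each Ensembl gene, and the deposited values are whole read counts without normalization. Strand setting and the treatment of multimapping reads are not given in the sources used here, and the sources differ on poly(A) selection or ribodepletion. The 10 genes (members) and the gene lists were chosen with earlier results of these data known. Groups follow the labels, which do not pair replicate numbers across groups.

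Counts were analyzed in R 4.3.3 with edgeR 4.0.16 (TMM, filterByExpr, 1 coefficient per group over all 12 libraries, quasi-likelihood F-test, Benjamini-Hochberg adjustment over 18702 genes). Log2 CPM for correlations used a prior count of 2. DESeq2 1.42.0 was an alternative. The fit was tested on simulated data. Exact permutation tests are two-sided. The named genes are the 10 members, their cognate ligands and receptors, the called genes of the other partner and induced genes, and the 3 best correlated genes per member. Of the called partners, 1 is not reported here by name. Intervals and floors for counts cover counting error only.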

Additional observations from a re-analysis of the deposited data

How the results depend on the processing

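Of 816 values of single genes under the alternatives, 753 kept direction and side of the threshold, 39 lost and 11 gained a call, and 13 changed sign. KO against flox under vehicle called 5924 genes, 5 of them members (the 10 genes described), and 3026 genes at a log2 fold change of at least 1.5. It called 2 members with at least 10 counts in every library (where Il10, Osm and Tnf could not be tested), and leave-one-out fits gave 4640 to 6828 genes and 4 to 5 members. With flox vehicle replicate 4 as the only flox vehicle library, chosen after seeing the data because it had the least epididymal RNA, 1415 genes and 1 member (Il10, on 2 counts in that library) were called. In that fit the lone library is assumed to vary like the other groups. KO against flox under MTX called 0 genes, but 2769 with DESeq2 (2 members), 875 with no low-count filter, 1491 with 10 or more counts per library, 4 when fitted on its 6 libraries, 17 with the 1 flox vehicle library, and 0 to 4064 with leave-one-out (0 to 5 members). MTX in flox mice called 4528 genes and 5 members. It called 2791 genes and 3 members at the larger fold, 2198 and 2 with at least 10 counts, 2167 and 0 on its 6 libraries, 580 and 0 with the 1 flox vehicle library, 3 members with library size only, and 2219 to 5995 genes and 1 to 6 members with leave-one-out. MTX in KO mice called 281 genes with DESeq2, 20 without a filter, 3 with its own libraries and 0 to 215 with leave-one-out. The interaction called 185 genes, and 1248 with DESeq2, 472 without a filter, 1 with at least 10 counts, 5 with the 1 flox vehicle library and 5 to 1371 with leave-one-out.

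With the replicate number as a block, MTX in flox mice called 2771 genes and 2 members, the interaction called 0 genes, and Osm lost its call between genotypes under vehicle (2.21, adjusted p = 0.114, edgeR). Same-numbered libraries deviated together little (median r = 0.04 over 12 pairs, -0.27 to 0.25, 3 of them over 0.1). The median over 42 other pairs was 0.01. With 3 libraries per group this check cannot show that the numbers pair nothing.

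Signs changed as follows, with the leave-one-out range where 1 library did it. Lif ranged from -0.37 to 0.27 between genotypes under vehicle and from -0.39 to 0.24 for MTX in flox mice (above 0 without flox vehicle replicate 4), and its interaction was 0.0051 with that library alone. Il33 ranged from -0.92 to 0.29 between genotypes under MTX (above 0 without flox MTX replicate 2). For MTX in KO mice, Tnf ranged from -0.046 (without KO vehicle replicate 1) to 0.80, Il33 from -0.23 (without KO MTX replicate 3) to 0.57, and Csf1 from -0.18 to 0.13, above 0 without KO vehicle replicate 3 or, at 0.12, KO MTX replicate 4. The interaction ranged from -0.91 to 0.16 for Tnfrsf1b and from -0.38 to 0.27 for Il4ra (both highest without flox MTX replicate 2, and Il4ra 0.054 without flox vehicle replicate 4). For Il4ra it was also 0.023 with library size only and 0.12 with the replicate block. The cause was not tested.

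Scaling by library size alone moved the median of all genes from -0.05 to 0.12 between genotypes under MTX, from 0.05 to -0.15 for MTX in flox mice and from -0.05 to 0.13 in the interaction. Among called genes the higher share went from 33.4% to 17.5% for MTX in flox mice. Il6 and Il1a had too few counts to be tested, Il10 had 2 to 8 and Osm 1 to 14 counts in flox vehicle libraries, and each group holds 3 mice.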
